A study of Mus musculus with 12 samples.

Results

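Expression in splenic erythroid precursors that carry the label of a combined Rb and E2f8 knockout was compared with expression in wild type precursors, over all genes. The comparison rests on the 3 arrays titled Rb;E2f8 DKO (below, DKO) and the 3 titled WT, 6 of the 12 arrays of the series. The other 6 arrays, 3 labelled E2f8 KO and 3 labelled Rb KO, entered the fit to estimate the spread. Cells of all groups were sorted by flow cytometry from the spleens of 3-month mice as positive for Ter119, a surface antigen of the red cell lineage, with high CD71, the transferrin receptor. WT mice carried neither knockout, and DKO mice are labelled as lacking both genes. The labels name neither the strain and sex of the mice nor the kind of allele, the cells in which deletion was driven, or any pooling of animals. Each array is labelled a biological replicate, and p-values measure the spread between these arrays.

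The retinoblastoma protein, encoded by Rb1, binds E2F transcription factors and holds back the genes they activate, which include those for entry into S phase and for DNA synthesis. E2F7 and E2F8 are atypical members of the family that bind DNA without a DP partner and repress transcription of many of the same targets. Erythroblasts divide several times while they fill with hemoglobin, then leave the cell cycle, condense and expel the nucleus, and clear their organelles, and Rb is known for its part in that exit.

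Signals are on the log2 scale, on which a difference of 1 is a 2-fold difference. A gene was called when the adjusted p (limma, Benjamini-Hochberg over 12980 genes) was under 0.05, and only called genes are said to have risen or fallen. Array medians lay between 6.22 and 6.35. Across the 12980 genes tested, Pearson's r was 0.966 to 0.976 among WT arrays, 0.968 to 0.983 among DKO arrays and 0.819 to 0.904 between arrays of the 2 groups. The median standard error of a difference was 0.184, and precision is limited by the number of arrays. Signals of both targeted genes went against the labels in part. Rb1 had signals of 12.23, 11.98 and 12.17 in the arrays labelled DKO and 13.02, 12.74 and 12.71 in WT, and E2f8 had 13.13, 13.17 and 13.09 against 12.28, 11.70 and 11.88. Rb1 was thus lower by less than 1 on the log2 scale and E2f8 was higher in the arrays labelled as lacking it. Where these probe sets lie relative to the deleted exons was not given here, and one that lies elsewhere in the gene checks nothing, so every direction below rests on the labels. Xist, a sex-linked gene, was at 12.18, 12.09 and 3.99 in the 3 DKO arrays and between 11.69 and 11.74 in WT. In the E2f8 KO arrays it was at 12.03, 11.98 and 5.22, so replicate 3 stood apart in the DKO and E2f8 KO groups. The DKO arrays may thus mix sexes where the WT arrays do not, and the part of sex in the differences was not tested. Replicate 3 of DKO also stood apart in its neutrophil markers (below).

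Markers of the sorted lineage were as bright in DKO as in WT, while markers of most other spleen cells were not. The mean signal of 15 measured erythroblast markers was 12.86, 12.72 and 12.78 in the WT arrays and 12.86, 12.87 and 12.88 in the DKO arrays, and the ranges touch. Of these markers 3 rose and 3 fell, with a median difference of 0.06. The number that rose was 0 without DKO replicate 2 or WT replicate 2 or 3, 1 without DKO replicate 1, and 5 without WT replicate 1 or Rb KO replicate 1 or 3. Tfrc, which encodes CD71, had signals of 12.78, 12.37 and 12.50 in WT and 12.87, 12.77 and 12.95 in DKO, a difference of 0.32 ± 0.21 (SE, n = 3 per group, limma adjusted p = 0.270).

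The B cell list showed the largest drop. Its 22 measured genes averaged 10.64, 11.68 and 10.13 in WT and 6.37, 6.67 and 7.29 in DKO, and 22 of 22 fell, with a median of -4.25. The groups did not come near each other for this list, and replicate 3 was its highest DKO array. Macrophage and monocyte markers averaged 9.18, 9.43 and 8.78 in WT and 7.13, 7.24 and 7.80 in DKO, and 19 of 23 fell. T cell markers had 11 of 12 members that fell, from 7.37, 7.39 and 7.81 to 6.04, 5.94 and 5.92, NK cell markers 4 of 4, dendritic cell markers 7 of 10 and plasma cell markers 5 of 9. Neutrophil markers went the other way, with 12 of 19 that rose and 0 that fell. They averaged 6.17, 6.38 and 6.29 in WT and 6.73, 7.75 and 9.96 in DKO. Their median of 1.66 was 0.84 without DKO replicate 3, when 9 rose and 1 fell, and 6 rose without WT replicate 1, 2 or 3. Megakaryocyte (1 of 9 rose, 2 fell), mast cell (0 and 0 of 3) and endothelial and stromal markers (0 and 2 of 9) showed few calls. Without DKO replicate 2 or WT replicate 3, 2 megakaryocyte markers rose and 1 fell, and 1 fell without WT replicate 2. Without WT replicate 3, 1 mast cell marker rose, and without DKO replicate 2 or 3 or WT replicate 3, 1 endothelial or stromal marker fell. In sorted bulk RNA, fewer cells of a type and less RNA per cell cannot be told apart, and the part of these other cell types in the results below was not tested.

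**Figure D1:**
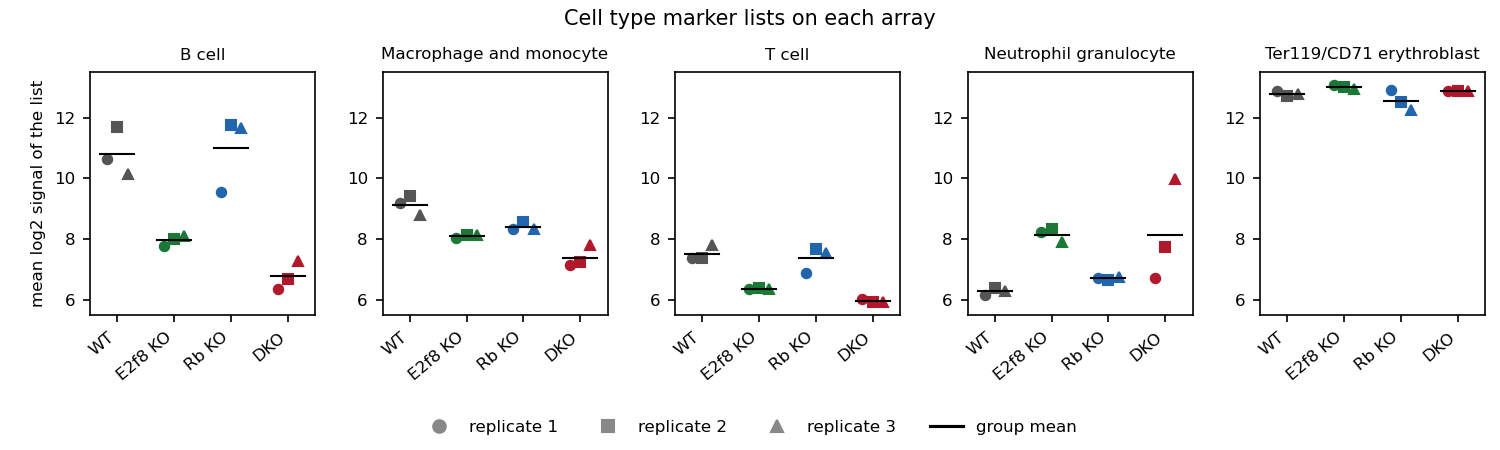
Mean log2 signal (vertical axis) of 5 cell type marker lists on each of the 12 arrays, by genotype label, with replicates as symbols and the group mean as a bar. The 3 DKO arrays sit between 6.37 and 7.29 for B cell markers against 10.13 to 11.68 in WT, spread from 6.73 to 9.96 for neutrophil markers, and lie within 12.86 to 12.88 for erythroblast markers.

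Of 12980 genes tested, 4952 differed between DKO and WT, which is 38.2%. There were 2669 that rose in DKO (20.6%) and 2283 that fell (17.6%). Each count of list members that rose or fell, above and below, is to be read beside these 2 shares. The balance was close to even for all called genes, but the larger differences were mostly losses. At least 2-fold differences were seen in 1124 genes that rose (8.66%) and 1223 that fell (9.42%), at least 4-fold in 92 and 411, and at least 8-fold in 11 and 113. The median over all genes was 0.00, with 25th and 75th percentiles of -0.31 and 0.38. Groups did not overlap in 5961 genes (45.9%), with DKO arrays all above in 3180 (24.5%) and all below in 2781 (21.4%). Of the called genes, 4790 were among them. Without DKO replicate 3 there were 4175, of which 2155 rose and 2020 fell. Leaving out 1 array at a time gave between 3649 (without WT replicate 2) and 5621 called genes (without Rb KO replicate 1).

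**Figure D2:**
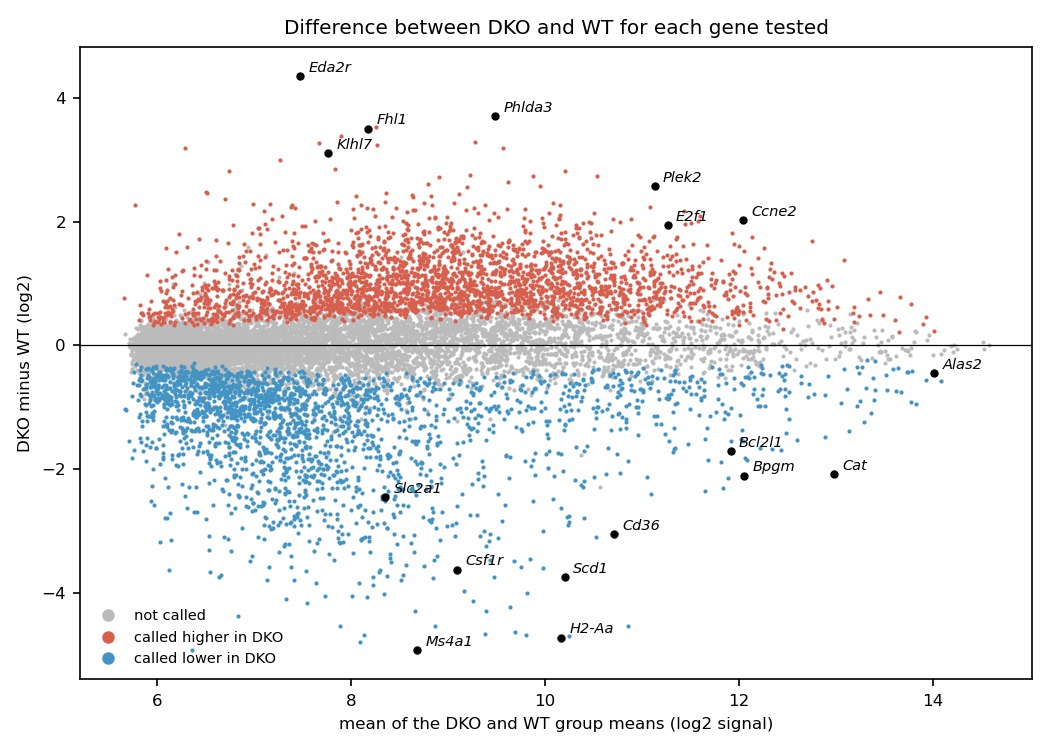
Difference of DKO minus WT on the log2 scale (vertical axis) against the mean of both group means (horizontal axis, log2 signal) for 12980 genes, with 2669 called higher in red, 2283 called lower in blue and named genes in black. The largest losses, near -4 and below, are B cell genes such as Ms4a1 and H2-Aa, whereas Eda2r and Phlda3 lie highest.

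The 15 largest losses among genes whose groups did not overlap ran from -4.29 (Cd180) to -4.93 (Igkv5-43) and were mostly genes of B cells. They include antigen receptor parts (Cd79a, Cd79b), class II antigen presentation (H2-Aa, H2-Ab1, Cd74), B cell transcription factors (Ebf1, Spib) and B cell surface proteins (Ms4a1, Fcer2a, Cr2, Fcmr). Ms4a1, which encodes CD20, stood at 11.08, 11.64 and 10.70 in WT and at 5.56, 5.89 and 7.20 in DKO. All genes named in this paragraph except Cd180, Igkv5-43 and Spib are themselves members of the B cell list, so their losses are part of the drop of that list.

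The 15 largest gains included p53 targets and neutrophil genes. Eda2r, a death receptor of the tumor necrosis factor family that is a p53 target, had signals of 5.24, 5.18 and 5.45 in WT and 9.40, 9.46 and 10.10 in DKO, and rose by 4.36 ± 0.20 (SE, n = 3 per group, limma adjusted p = 1.99e-07). Its WT arrays lay below the level of 5.84 at which probe sets were filtered, so the size of the difference is uncertain. The same holds for the other called genes named (microRNA loci are treated apart) with a group mean below that level, and for their places in the order. In WT these were Cgas, Chil3, Ephx3, Fsd1l, Ly6g and Mmp8, and in DKO Cr2, Ebf1, Fcer2a and Igkv5-43. Phlda3, a p53 target that inhibits Akt, stood at 7.57, 7.64 and 7.67 in WT and 11.22, 11.25 and 11.56 in DKO (difference 3.71 ± 0.24, limma adjusted p = 1.92e-06). Fhl1, which encodes a LIM domain protein, rose by 3.51 ± 0.20 and Klhl7, of a substrate adaptor of a ubiquitin ligase, by 3.11 ± 0.24. Mybl1, of a MYB family transcription factor, rose by 3.29 ± 0.31 and Cgas, the sensor of cytosolic DNA, by 2.83 ± 0.30, from 5.40, 5.36 and 5.22 to 7.49, 8.51 and 8.46. Slfn9 (3.53 ± 0.28), Fam221a (3.28 ± 0.23) and Fsd1l (3.00 ± 0.34) were also in this group. The other 6 were members of the neutrophil list (S100a8, S100a9, Lcn2, Chil3, Ltf and Ngp), which rose by 2.83 to 3.39. S100a8 was at 6.20, 6.37 and 6.01 in WT but at 7.45, 9.25 and 12.08 in DKO. All 3 DKO arrays lay above WT, but they were far apart, with replicate 3 highest and replicate 1 just above WT.

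The genes of the Rb and E2F network themselves moved in both directions. Of 13 pocket protein and E2F genes, all measured, 7 rose and 3 fell, with a median of 0.92. Of the activators, E2f1 stood at 10.79, 9.78 and 10.31 in WT and 12.13, 12.22 and 12.38 in DKO and rose by 1.95 ± 0.23 (SE, n = 3 per group, limma adjusted p = 6.14e-05), and E2f3 rose by 1.23 ± 0.29. E2f2, an activator as well, had 12.06, 12.39 and 12.43 in WT and 12.23, 12.38 and 12.19 in DKO, a difference of -0.03 ± 0.12 (adjusted p = 0.895). The WT and DKO arrays overlapped for E2f2, whereas for E2f1 all 3 DKO arrays lay above all 3 WT arrays. Of the repressors, E2f7, the partner of E2f8 in function, went from 10.25, 9.82 and 9.82 to 11.95, 12.18 and 12.49 (2.24 ± 0.25). E2f6, a repressor that acts without pocket proteins, rose by 2.45 ± 0.37. E2f4 (0.35 ± 0.15, adjusted p = 0.0841) and E2f5 (-0.38 ± 0.20, adjusted p = 0.166) were not called. The DP partner Tfdp1 rose by 1.30 ± 0.23 while the related Tfdp2 fell by 0.53 ± 0.12. The pocket proteins split as well, with p107 (Rbl1) up by 0.92 ± 0.22, and p130 (Rbl2), the form typical of resting cells, down by 0.90 ± 0.19 from 8.73, 8.53 and 8.14 to 7.44, 7.77 and 7.50.

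Of 25 measured G1/S control genes, 12 rose and 3 fell (median 0.52). Cyclin E2 (Ccne2), which drives entry into S phase with Cdk2, stood at 11.45, 10.40 and 11.22 in WT and 13.16, 12.85 and 13.17 in DKO (2.03 ± 0.28). Cyclin E1 (Ccne1) rose by 1.41 ± 0.23, Cdk2 by 1.78 ± 0.22 and Skp2, which targets the inhibitor p27 for destruction, by 1.98 ± 0.26. Cyclin D1 (Ccnd1), which works upstream of Rb, fell by 1.51 ± 0.20. The cyclin G genes went in opposite directions. Ccng1, a p53 target, rose by 1.96 ± 0.20, and Ccng2, linked to cell cycle arrest, fell by 1.77 ± 0.17, with signals of 7.45, 7.80 and 7.60 in WT against 5.76, 5.96 and 5.84 in DKO.

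The DNA replication list was the pathway list with the highest median, at 1.32. Of its 55 genes, all measured, 48 rose and 1 fell, against 20.6% and 17.6% of all genes, and in 51 the DKO arrays lay above all WT arrays. The list averaged 9.73, 9.08 and 9.20 in WT and 10.51, 10.60 and 10.56 in DKO. The DKO arrays lay close together (SD 0.046), the WT arrays less so (SD 0.347), with WT replicate 1 highest. Leaving out 1 array at a time moved the median between 1.21 and 1.50 and the number that rose between 43 and 51. Genes for each step of replication rose. Cdt1, which loads the MCM helicase at origins, went from 10.90, 10.26 and 10.29 to 12.15, 12.18 and 12.30 (1.72 ± 0.20, limma adjusted p = 6.17e-05). Rpa2, of the protein that covers single strands, rose by 1.99 ± 0.23, Dscc1, of a clamp loader that aids cohesion, by 2.32 ± 0.26, and the polymerase subunit genes Pold2 and Pole4 by 1.69 ± 0.20 and 1.53 ± 0.17. The 1 member that fell was Pold4, the small subunit of DNA polymerase delta, at -2.21, named after its value was seen.

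Promoter sequences show the letters that E2F proteins are known to bind in several of these genes. Promoters were taken from RefSeq (GRCm38.p6) as 250 bases before to 50 after the first listed start, for 10317 of the genes tested. They were searched on both strands for TTTCCCGC, TTTGGCGC, TTTCGCGC and TTTGCCGC, forms that can overlap on opposite strands. The stretches of 250 bases before the start of Mcm6 (chr1:128359706-128359955 on the minus strand) and Mcm5 (chr8:75109259-75109508 on the plus strand), of the helicase, of Orc1 (chr4:108579204-108579453 on the plus strand), of the origin recognition complex, and of E2f7 (chr10:110745189-110745438 on the plus strand) are printed to show how the forms sit. They were chosen after their values were seen, run 5′ to 3′ along the gene, and carry the matched letters in capitals.

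Mcm6: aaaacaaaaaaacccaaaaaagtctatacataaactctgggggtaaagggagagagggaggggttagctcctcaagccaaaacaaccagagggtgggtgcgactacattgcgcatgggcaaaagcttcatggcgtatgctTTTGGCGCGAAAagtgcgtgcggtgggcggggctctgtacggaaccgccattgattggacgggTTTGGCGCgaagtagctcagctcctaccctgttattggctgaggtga
Mcm5: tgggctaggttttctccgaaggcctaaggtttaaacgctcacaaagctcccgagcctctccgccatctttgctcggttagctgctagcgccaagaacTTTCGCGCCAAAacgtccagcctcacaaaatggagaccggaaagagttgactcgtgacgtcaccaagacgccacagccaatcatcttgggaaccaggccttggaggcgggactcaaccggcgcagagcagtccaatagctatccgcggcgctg
Orc1: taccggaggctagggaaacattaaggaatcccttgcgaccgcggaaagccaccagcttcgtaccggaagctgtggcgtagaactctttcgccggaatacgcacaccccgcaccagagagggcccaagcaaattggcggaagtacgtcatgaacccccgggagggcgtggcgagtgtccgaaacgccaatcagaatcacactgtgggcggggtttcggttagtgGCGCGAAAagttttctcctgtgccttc
E2f7: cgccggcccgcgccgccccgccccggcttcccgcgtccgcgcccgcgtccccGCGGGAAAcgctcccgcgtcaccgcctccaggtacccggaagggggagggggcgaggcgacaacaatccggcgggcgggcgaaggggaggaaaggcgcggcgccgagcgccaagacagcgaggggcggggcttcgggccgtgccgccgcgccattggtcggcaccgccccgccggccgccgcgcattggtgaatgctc

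In Mcm6 a pair of forms on opposite strands begin 110 and 106 bases before the start and share letters, and another begins at 47. In Mcm5 the overlapping pair begins at 153 and 149 bases, and the single forms of Orc1 and E2f7 begin at 27 and 198. Mcm6 rose by 1.37 ± 0.23, Mcm5 by 1.08 ± 0.16 and Orc1 by 1.42 ± 0.34. Over all genes with a promoter, 3.98% held a form. The share was 8.62% among genes that rose (190 of 2204, 95% Wilson interval 7.52% to 9.87%), 2.20% among genes that fell (40 of 1822) and 2.88% among genes not called. It was 11.8% among genes that rose by at least 2-fold. Of the replication genes 17 of 45 held a form (37.8%), of the DNA damage genes 21.9% and of the G1/S genes 21.1%. Of the pocket protein and E2F genes 5 of 10 held one, but of the nucleotide synthesis genes 1 of 22 (4.55%). The share was 11.3% for the mitotic genes and 0 of 21 for the p53 targets. For the list of histone, chaperone and chromatin genes it was 0 of 22. Intervals cover counting error only, and a match is a description of the letters, not a binding site. E2f1 and E2f8 held no form in the 300 bases at their first listed start. That start need not be the one in use, and promoters at other starts were not searched. The absence of a form therefore says nothing of the main promoter of E2f1. Cdt1 held a form after the start and none in the 250 bases before it. In those 250 bases alone, the share was 22.2% for replication genes (10 of 45), 7.03% for genes that rose and 3.3% over all genes.

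Genes that respond to DNA damage and stalled forks rose with those of replication. Of 41 measured, 31 rose and 1 fell (0 without DKO replicate 1 or WT replicate 2), with a median of 1.14. The list averaged 8.78, 8.22 and 8.27 in WT and 9.38, 9.54 and 9.49 in DKO. Uhrf1, which keeps DNA methylation through replication, went from 10.82, 10.15 and 10.48 to 12.25, 12.28 and 12.19 (1.76 ± 0.18, SE, n = 3 per group). Wee1, the kinase that restrains Cdk1, rose by 1.79 ± 0.22, the mismatch repair gene Msh6 by 1.87 ± 0.28, Smc5, of a complex that resolves joined strands, by 1.44 ± 0.19, and the recombination gene Xrcc3 by 1.23 ± 0.17. Of the genes that supply nucleotides and one-carbon units, 14 of 25 rose and 1 fell (median 0.82). Dctpp1, which clears faulty dCTP, stood at 8.48, 8.56 and 8.49 in WT and at 11.18, 11.12 and 11.43 in DKO, a rise of 2.74 ± 0.23 (limma adjusted p = 6.71e-06). The mitochondrial folate gene Mthfd2 rose by 2.09 ± 0.22, thymidylate synthase (Tyms) by 1.64 ± 0.25 and the ribonucleotide reductase subunit Rrm2 by 1.38 ± 0.19.

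Of 61 measured mitotic genes, 53 rose and 1 fell, with a median of 0.98. The list averaged 10.36, 9.78 and 9.98 in WT and 11.01, 10.97 and 10.92 in DKO. Without WT replicate 2 the number that rose was 30, with a median of 0.85. The centromere gene Cenpm went from 9.72, 9.19 and 9.30 to 11.33, 11.42 and 11.40 (1.98 ± 0.22), and the kinetochore genes Ndc80 and Spc24 rose by 1.52 ± 0.32 and 1.46 ± 0.30. Ect2, needed for cytokinesis, rose by 0.98 ± 0.21, Cdk1, the mitotic kinase, by 1.15 ± 0.25 and Mki67, a marker of cycling cells, by 0.72 ± 0.20. Mki67 was not called without WT replicate 1 or 3. The mitotic phosphatase gene Cdc25b was the member that fell, by 0.87 ± 0.13 from 12.42, 12.61 and 12.83 to 11.74, 11.77 and 11.75. The letters TTTGAA, the core of the cell cycle homology region through which the DREAM complex acts on late genes, were searched after values were seen. They stood in 67.9% of mitotic promoters (36 of 53), 26.3% of G1/S promoters and 13.3% of replication promoters. For the list of histone, chaperone and chromatin genes the share was 45.5% (10 of 22). These shares stand against 11.8% of all promoters and 14% of those of genes that rose.

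**Figure D3:**
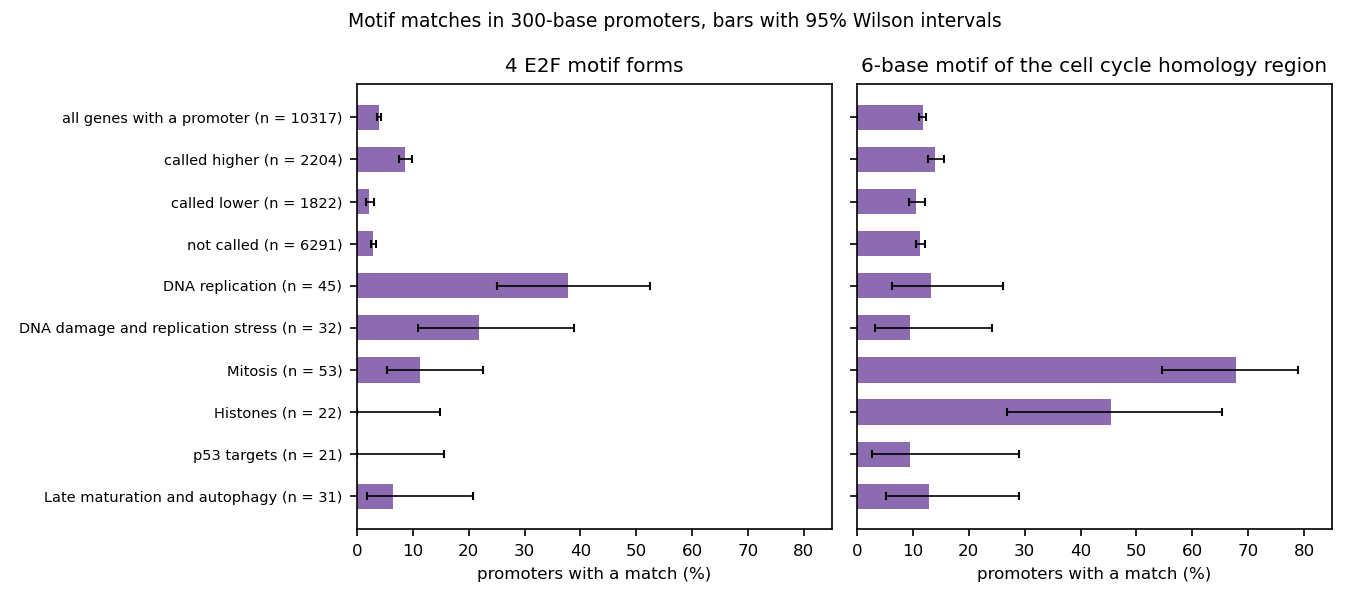
Share of promoters of 300 bases with a match (horizontal axis, percent) for the 4 E2F forms and for the 6-base motif of the cell cycle homology region, in sets of genes named at the left with their number, with 95% Wilson intervals. Replication genes held E2F forms in 37.8% and mitotic genes the 6-base motif in 67.9%, against 3.98% and 11.8% of all promoters.

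Of 24 measured histone, chaperone and chromatin genes, 14 rose and 1 fell (median 0.49), and 9 rose without WT replicate 2. Slbp, whose protein binds the stem loop of histone mRNA, rose by 1.65 ± 0.22 and Chaf1a, which deposits new histones behind the fork, by 1.61 ± 0.27. The variant histone H2az2 rose by 1.18 ± 0.21 and Hmgn2 by 0.94 ± 0.14. The core histone gene H2bc4 fell by 1.12 ± 0.19, from 12.43, 12.46 and 12.80 to 11.30, 11.45 and 11.59. Near-identical histone genes can share probes, so values of single histone genes are uncertain.

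Of 99 microRNA loci tested, 16 rose and 3 fell, a smaller share in each direction than the 20.6% and 17.6% of all genes. The arrays read the precursor or host transcript, not the mature product. The loci named here, of microRNAs known to be under E2F or cell cycle control, were chosen after their values were seen. Mir18, from the cluster known as miR-17 to miR-92, was at 7.0, 7.60 and 8.25 in DKO and rose by 2.38 ± 0.18 (SE, n = 3 per group), and its host transcript Mir17hg rose by 1.81 ± 0.13. Mir106b, Mir93 and Mir25, which lie within Mcm7, rose by 1.14 ± 0.17, 0.84 ± 0.18 and 0.57 ± 0.18, and Mcm7 itself by 1.11 ± 0.17. The WT means of Mir18, Mir17hg and Mir106b lay below the filter level of 5.84, so the sizes of their differences are uncertain. Probe sets of a host and of the microRNA inside it may read the same transcript. Mir15a rose by 1.91 ± 0.33. The mature sequences (RefSeq, GRCm38.p6) are printed to show the seed, bases 2 to 8, in capitals, by which a microRNA recognises its targets.

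mmu-miR-18a-5p: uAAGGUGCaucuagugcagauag
mmu-miR-106b-5p: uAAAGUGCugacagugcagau
mmu-miR-93-5p: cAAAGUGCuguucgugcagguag
mmu-miR-25-3p: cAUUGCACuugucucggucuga
mmu-miR-15a-5p: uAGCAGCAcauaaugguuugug

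The products of Mir106b and Mir93, at chr5:138165787-138165807 and chr5:138165574-138165596 on the minus strand, have the same seed, AAAGUGC. The seed of miR-18a, AAGGUGC, is another, and those of miR-25 and miR-15a differ from both.

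Among p53 targets, 14 of 28 measured genes rose and 5 fell (median 0.64), and the 5 were 2 without WT replicate 2 and 3 without DKO replicate 2. Beside Eda2r and Phlda3, the death receptor gene Tnfrsf10b stood at 6.02, 6.51 and 6.22 in WT and at 8.36, 8.48 and 8.75 in DKO and rose by 2.28 ± 0.16 (limma adjusted p = 2.98e-06). Pidd1, of a platform that activates caspase 2, rose by 1.98 ± 0.19 and the bypass polymerase gene Polk by 1.89 ± 0.19. The largest loss on this list was Ephx1, at -3.16, named after its value was seen. The median depended on the filter for dim genes, at 0.15 without it and 1.19 with the lowest 60% removed. Cdkn1a and Trp53 had no probe set with that symbol alone and were not analysed here.

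The core apoptosis genes were split, with 8 of 30 that rose, 8 that fell (5 without WT replicate 2) and a median of 0.01. Genes that promote death were among those that rose, with Bbc3, which encodes PUMA, at 7.15, 7.46 and 7.66 in WT and 8.92, 9.37 and 8.70 in DKO (1.58 ± 0.22), and Bcl2l11, which encodes BIM, up by 1.47 ± 0.15. Bcl2l1, which encodes BCL-XL, the survival protein of late erythroblasts, fell by 1.71 ± 0.13 (limma adjusted p = 3.60e-06), from 12.61, 12.78 and 12.93 to 11.13, 11.13 and 10.92. All 3 DKO arrays lay below all WT arrays for this gene. Bnip3l, which encodes the mitophagy receptor NIX, fell by 0.55 ± 0.07. Bcl2 and Birc3, named after their values were seen, had differences of -2.96 and -2.03 in arrays in which the B cell list was lower by the values above, and the part of B cells in those losses was not tested.

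**Figure D4:**
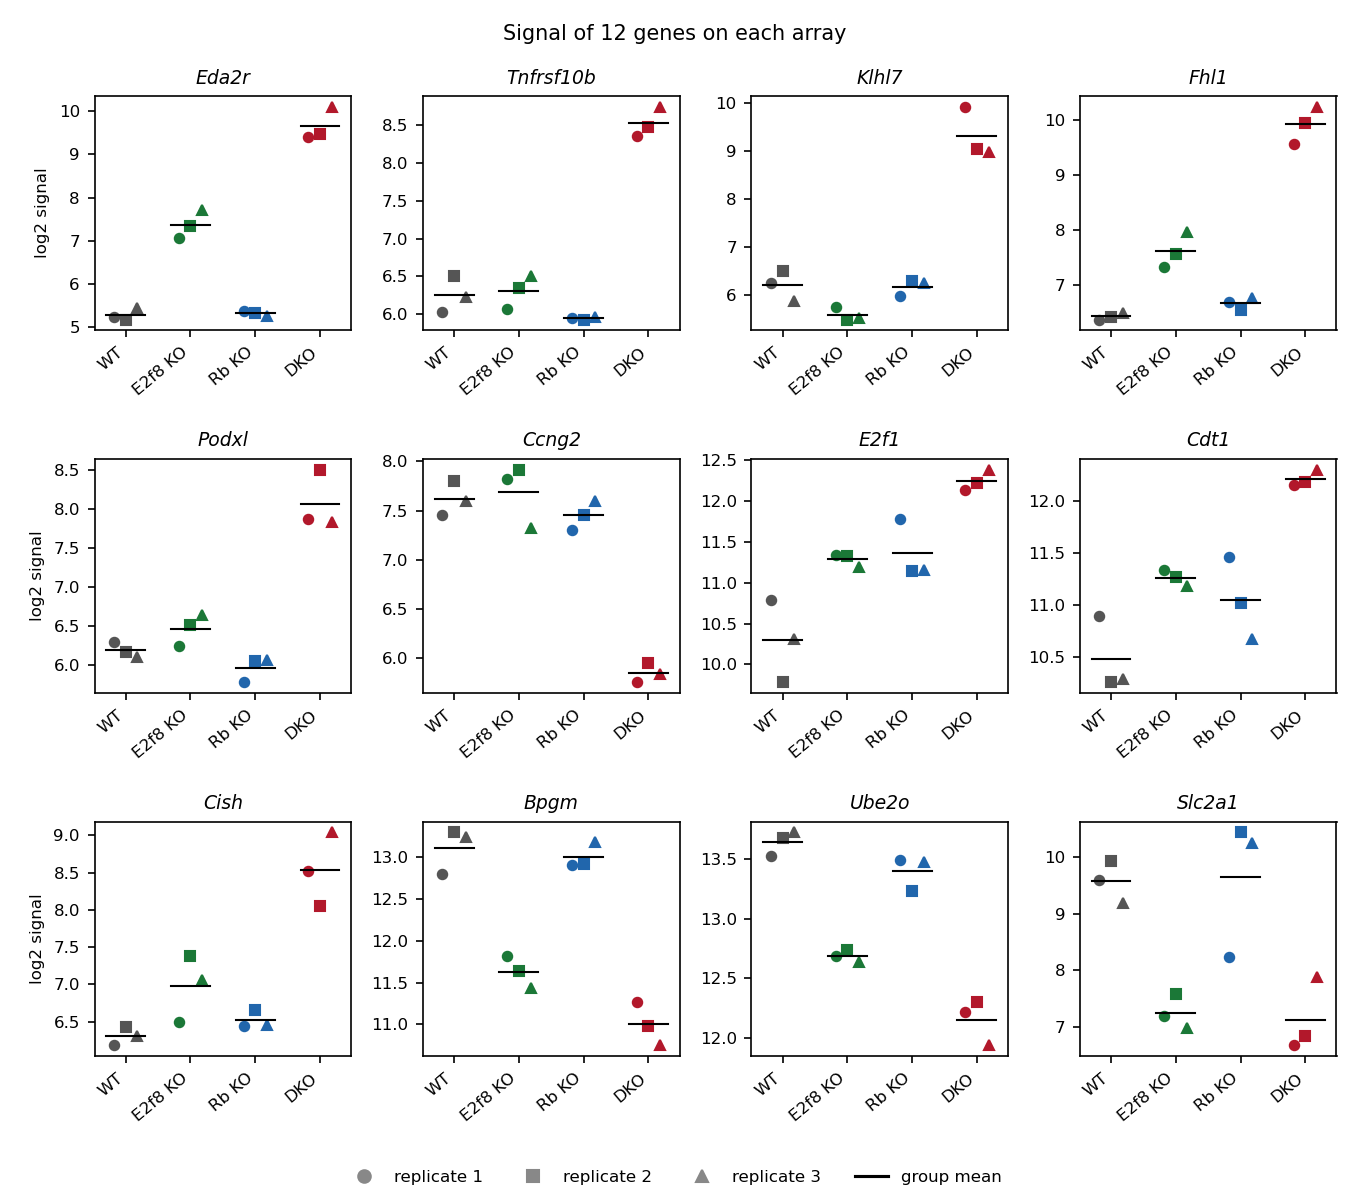
Log2 signal (vertical axes, each with its own range) of 12 genes on the 12 arrays, by genotype label, with replicates as symbols and the group mean as a bar. For Eda2r the DKO arrays lie between 9.40 and 10.10 against 5.18 to 5.45 in WT, and for Bpgm between 10.75 and 11.27 against 12.80 to 13.29.

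Genes of late maturation and autophagy were mostly lower in DKO. Of 43 measured, 23 fell and 5 rose, with a median of -0.55, and the list averaged 11.38, 11.41 and 11.45 in WT and 10.95, 10.95 and 10.84 in DKO. Bpgm, whose product makes 2,3-bisphosphoglycerate, which loosens the grip of hemoglobin on oxygen, went from 12.80, 13.29 and 13.24 to 11.27, 10.98 and 10.75 and fell by 2.11 ± 0.17 (SE, n = 3 per group, limma adjusted p = 5.06e-06). Ube2o, of the ubiquitin enzyme that removes ribosomes from reticulocytes, fell by 1.48 ± 0.11 from 13.52, 13.67 and 13.72 to 12.22, 12.30 and 11.94. The ubiquitin ligase genes Mkrn1 and Rnf10 fell by 1.70 ± 0.14 and 1.24 ± 0.09. Plek2, which protects actin structure in erythroblasts, was an exception and rose by 2.58 ± 0.19, from 10.16, 9.72 and 9.65 to 12.67, 12.36 and 12.23. All 3 DKO arrays lay outside the WT range for each of these 5 genes.

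Heme and iron genes showed smaller and mixed differences. Of 20 heme genes 5 fell and 3 rose (1 without DKO replicate 2 or 3 or WT replicate 2 or 3), with a median of -0.05. Alas2, the first enzyme of erythroid heme synthesis, fell by 0.45 ± 0.07 from 14.12, 14.29 and 14.32 to 13.84, 13.73 and 13.82, and the last enzyme, Fech, by 0.53 ± 0.10. The iron carrier of mitochondria, Slc25a37, fell by 0.43 ± 0.09 and Fam210b, which aids iron import there, by 0.75 ± 0.15. The highest value on the scale was 14.84. Hmox1, which breaks heme down, fell by 2.08 ± 0.30 and is also on the macrophage list. Of 22 iron genes 8 fell and 3 rose (5 without Rb KO replicate 1). The iron-sulfur cluster genes Iscu and Isca1 fell by 1.51 ± 0.15 and 1.03 ± 0.14 and Ncoa4, which delivers ferritin for breakdown, by 0.94 ± 0.11. Erfe, the erythroblast hormone that lowers hepcidin, stood at 7.0, 7.42 and 7.17 in WT and at 9.02, 9.08 and 8.71 in DKO and rose by 1.74 ± 0.20. The serum transferrin gene Trf fell by 2.87 ± 0.30, from 10.58, 11.09 and 9.89 to 7.11, 7.69 and 8.15. Its DKO replicate 3 was highest, the order of the B cell, macrophage and neutrophil lists. The part of these cells in the difference was not tested. Of 13 listed globin genes 5 were measured, mostly embryonic or theta forms, and 1 of them (Hbb-bh2) fell. The adult globin genes were not analysed here.

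Red cell membrane genes were mostly not called, with 7 of 32 that rose, 4 that fell and a median of 0.05. The 7 were 3 without DKO replicate 2 or WT replicate 2, 4 without WT replicate 3 and 11 without Rb KO replicate 3. Single members differed by much more. Cd36, a fatty acid receptor of erythroid cells and macrophages, went from 12.36, 12.11 and 12.23 to 9.45, 9.36 and 8.74 and fell by 3.05 ± 0.23 (limma adjusted p = 3.17e-06). The part of macrophages in this difference was not tested. Slc2a1, the glucose transporter GLUT1, fell by 2.45 ± 0.49 from 9.61, 9.93 and 9.20 to 6.67, 6.84 and 7.87. Its DKO replicate 3 was highest, as for the B cell, macrophage and neutrophil lists, and the part of those cells was not tested. The stretch-gated channel gene Piezo1 rose by 1.19 ± 0.23.

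Of 38 transcription factors of the erythroid lineage, 12 rose and 6 fell, against 20.6% and 17.6% of all genes (median 0.14). The 6 were 2 without DKO replicate 1 and 3 without WT replicate 2. Gata1 had signals of 11.67, 11.04 and 11.34 in WT and 11.82, 11.97 and 11.94 in DKO, a difference of 0.56 ± 0.22 (limma adjusted p = 0.0568), and Klf1 one of 0.53 ± 0.20 (adjusted p = 0.0578). Neither was called, although the DKO arrays lay above all WT arrays for both. Gfi1b, a repressor needed for red cell formation, rose by 0.72 ± 0.14, Nr3c1, the glucocorticoid receptor of stress erythropoiesis, by 1.12 ± 0.17, Lyl1 by 0.86 ± 0.13 and Nfe2l2, which encodes NRF2, by 1.02 ± 0.15. Foxo3, an activator of late erythroid genes, had a difference of -0.16 ± 0.13 (adjusted p = 0.380).

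Of 29 measured genes of erythropoietin and stem cell factor signalling, 10 rose and 8 fell (4 without DKO replicate 1 or WT replicate 2), with a median of 0.25. Cish, a feedback inhibitor that STAT5 induces, stood at 6.18, 6.42 and 6.31 in WT and at 8.52, 8.05 and 9.04 in DKO and rose by 2.23 ± 0.25 (limma adjusted p = 4.30e-05). Podxl and Irs2 rose by 1.88 ± 0.18 and 1.64 ± 0.14. The erythropoietin receptor gene Epor rose by 0.66 ± 0.21, a call that was lost without DKO replicate 1 or 2 or WT replicate 2 or 3. Kit, the stem cell factor receptor of earlier erythroid cells, fell by 1.40 ± 0.21, from 8.22, 7.67 and 7.67 to 6.28, 6.70 and 6.39. Of 12 measured progenitor markers, Kit among them, 6 fell and 1, Myb, rose (1.09 ± 0.26). Those that fell include Apoe, Cd27 and Flt3, which is also on the dendritic cell list. The part of other cell types in these losses was not tested.

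Genes for amino acid supply and tRNA charging moved in one direction and ribosomal protein genes in the other. Of 33 measured aminoacyl-tRNA synthetase and amino acid response genes, 20 rose and 0 fell, with a median of 0.86 and list means of 9.23, 9.0 and 8.76 in WT and 9.77, 10.11 and 9.91 in DKO. Ddit3, which encodes the stress factor CHOP, went from 7.73, 7.23 and 7.50 to 9.84, 10.40 and 10.04 (2.61 ± 0.22, limma adjusted p = 6.89e-06). The serine synthesis gene Psat1 rose by 2.47 ± 0.25, Cebpg, a partner of ATF4, by 2.08 ± 0.22, Eif4ebp1 by 1.73 ± 0.23 and Trib3 by 1.54 ± 0.20. Of 28 ribosomal protein genes 0 rose and 11 fell (median -0.26), and 6 or 7 fell without DKO replicate 3, WT replicate 1 or WT replicate 2, or after each array was centred. Rpl5 fell by 0.85 ± 0.15 and Rps14 by 0.74 ± 0.12. Ribosomal protein genes have many pseudogenes that can share probes. Of 45 ribosome biogenesis genes 8 rose (5 without DKO replicate 3 or WT replicate 3) and 2 fell. The number that fell was 0 without DKO replicate 1 or 3, WT replicate 1 or 2 or any 1 E2f8 KO array, and 1 without WT replicate 3 or Rb KO replicate 3. The genes of the box C/D proteins Nop56 and Nop58 rose by 1.22 ± 0.19 and 1.24 ± 0.23.

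Among chaperone and proteasome genes more rose than fell, and many were not called. Of 31 heat shock and unfolded protein genes 13 rose and 1 fell (2 without DKO replicate 3 or Rb KO replicate 1; median 0.39), with Dnajb9, a chaperone gene of the endoplasmic reticulum, at 9.14, 9.02 and 8.63 in WT and 11.18, 11.09 and 11.44 in DKO (2.31 ± 0.17), and Hsp90aa1 up by 1.57 ± 0.23. Of 33 proteasome genes 16 rose and 2 fell (median 0.56), and the number that rose was between 8 and 10 without DKO replicate 2 or 3 or WT replicate 2 or 3. The members that fell were the alternative activators Psme3, by 0.47 ± 0.08, and Psme4, by 1.46 ± 0.18, whereas Psma7, of the core, rose by 1.20 ± 0.21.

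Of 28 antioxidant and pentose phosphate genes 12 rose and 6 fell (median 0.34), with enzymes that moved in opposite directions. Catalase (Cat), abundant in red cells, went from 13.93, 14.09 and 14.04 to 12.12, 12.05 and 11.65 and fell by 2.08 ± 0.11 (limma adjusted p = 9.30e-07), and glutaredoxin (Glrx) fell by 2.35 ± 0.15. The glutathione reductase gene Gsr rose by 1.82 ± 0.20, the sulfiredoxin gene Srxn1 by 2.07 ± 0.29 and Gpx4 by 1.39 ± 0.20. In lipid synthesis 11 of 25 genes rose (7 without DKO replicate 3) and 3 fell. The sterol genes Insig1 and Idi1 rose by 2.65 ± 0.19 and 2.43 ± 0.35, while Scd1, a fatty acid desaturase, fell by 3.75 ± 0.42 from 12.12, 12.34 and 11.77 to 7.71, 8.93 and 8.34. Few oxidative phosphorylation genes were called, with 3 of 39 that rose (0 without DKO replicate 2 or 3 or WT replicate 2 or 3, 1 without DKO replicate 1 and 6 without Rb KO replicate 1), 3 that fell and a median of 0.09. Of 20 glycolysis genes 5 fell and 2 rose.

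Interferon response genes had a median of -0.64, the lowest of the 27 pathway lists. Without the filter on low signals it was -0.38, nearer to 0 than the -0.55 of the late maturation list. On the filtered genes, 13 of 26 fell (7 without WT replicate 2) and 2 rose (1 without DKO replicate 1 or WT replicate 2 or 3). The list averaged 8.50, 8.57 and 8.11 in WT and 7.75, 7.67 and 7.97 in DKO. Rsad2, an antiviral gene, fell by 1.10 ± 0.10, from 13.84, 13.94 and 13.97 to 13.09, 12.70 and 12.66. Trim30a fell by 2.70 ± 0.46 and Irf1 by 2.06 ± 0.37. DKO replicate 3 was highest for both, as for the B cell, macrophage and neutrophil lists, and the part of those cells was not tested. In the MYC network 3 of 12 rose and 2 fell (1 without DKO replicate 1 or WT replicate 2, 4 without Rb KO replicate 1). Myc itself had a difference of -0.07 ± 0.30 (limma adjusted p = 0.881) and Mxd3, an antagonist that is high in S phase, rose by 1.52 ± 0.19.

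**Figure D5:**
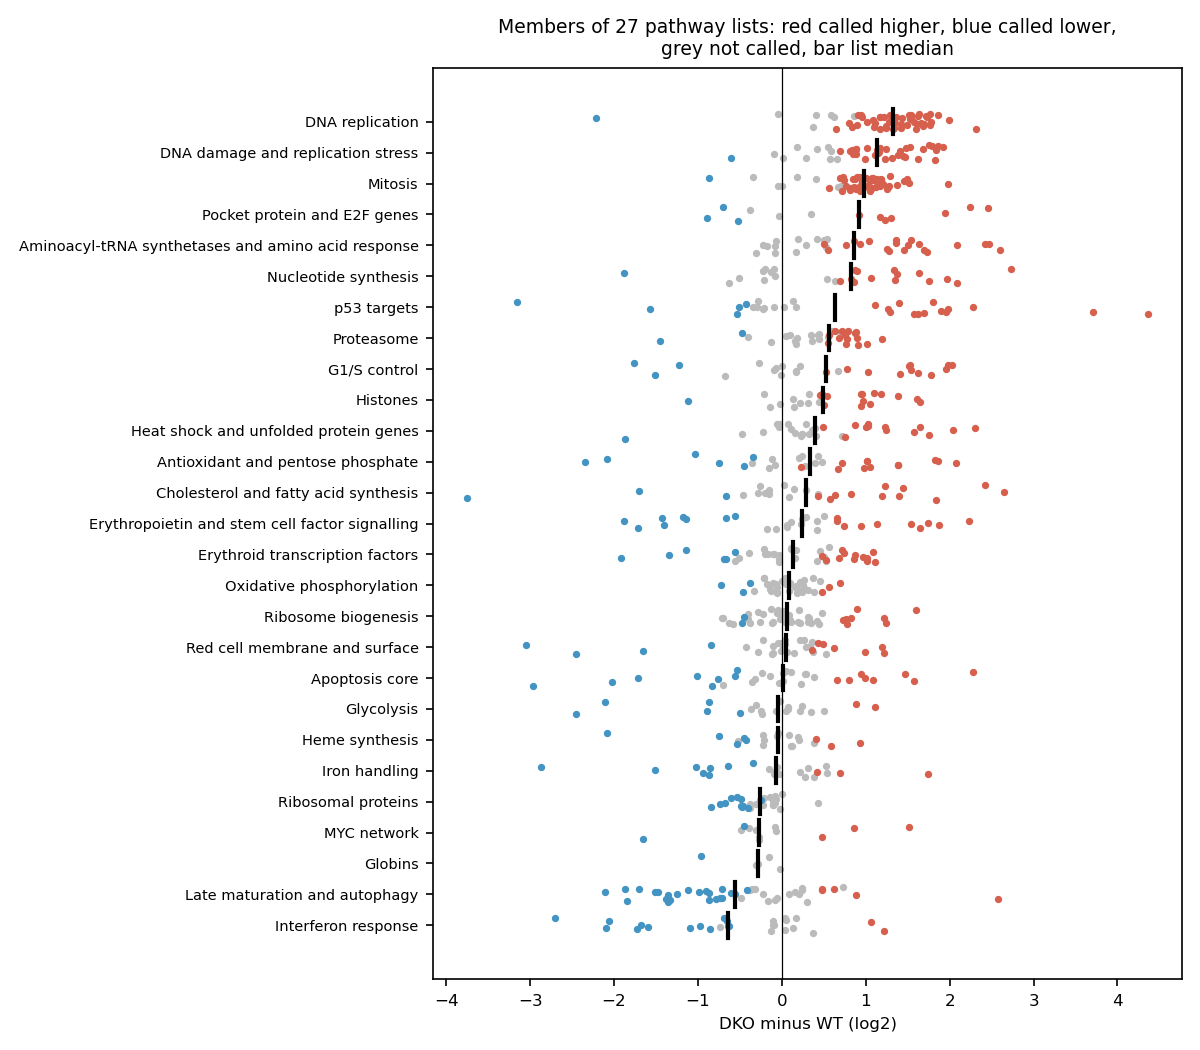
Difference of DKO minus WT on the log2 scale (horizontal axis) for the measured members of 27 pathway lists, in the order of their medians (black bars), with called members in red or blue and others in grey. Medians run from 1.32 for DNA replication to -0.64 for interferon response, and lists near 0 such as red cell membrane hold single members beyond -2.

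Whether the DKO label differed from the sum of the single labels was tested for every gene (interaction, limma). Of 12980 genes 10 were called (0.077%), and 740 had an unadjusted p under 0.05. Klhl7 stood at 6.25, 6.50 and 5.88 in WT, at 5.73, 5.48 and 5.52 in E2f8 KO, at 5.98, 6.29 and 6.24 in Rb KO and at 9.93, 9.04 and 8.99 in DKO, an interaction of 3.78 ± 0.33 (limma adjusted p = 0.000465). Its signal was thus near the filter level in every group but DKO. Tnfrsf10b had group means of 6.25, 6.31, 5.94 and 8.53 in the same order, with an interaction of 2.53 ± 0.23 (limma adjusted p = 0.000465). Ccng2 was the reverse case, with means of 7.62, 7.69, 7.45 and 5.85. The count was 2 without WT replicate 1, 5 without WT replicate 3, 49 without Rb KO replicate 1 and 20 without DKO replicate 1. Klhl7 and Tnfrsf10b were called in each of these fits.

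The 3 DKO arrays differed most among themselves in neutrophil genes. Apart from Xist, the genes with the largest spread were Ly6g, Ltf, Chil3, S100a8, Ifitm6, Ly6a2, Anxa1, Ceacam1 and Mmp8, and DKO replicate 3 was highest for each and replicate 1 lowest. Ly6g, a surface marker of neutrophils, stood at 5.62, 7.09 and 10.52 in DKO against 4.72, 5.48 and 5.60 in WT. Ceacam1 was at 5.16, 7.16 and 9.61 in DKO and between 7.99 and 9.22 in WT, so that its group mean hides values on both sides of WT. In DKO replicates 1, 2 and 3, list means were 10.51, 10.60 and 10.56 for replication and 11.01, 10.97 and 10.92 for mitosis. The part of neutrophils in these values was not tested.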

How the data were processed

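RNA of sorted mouse spleen erythroid precursors was read on 12 single-channel Affymetrix arrays, 3 per genotype label. The deposited table holds log2 values per probe set and array, a scale inferred from the values (1.0678 to 14.8423). MAS5 (no version) is named per the submitters' processing notes, but identifiers of this kind are usual for another array type, so the software that made the values is uncertain. Neither the background correction nor the normalization was given here.

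Of 35557 probe sets, 21789 had 1 gene symbol, 1621 several and 12147 none listed, and 21698 of those with 1 symbol were matched to RefSeq by gene number. The lowest 40% by mean over the 12 arrays (14223, below 5.84) were removed. Probe sets with 1 symbol gave 12980 genes, of which 684 had several and kept the brightest. Among called genes with several, 7 of 293 had one of opposite sign. Of 1058 genes on 39 lists, 910 were tested.

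Differences were fitted with limma 3.58.1 (R 4.3.3), 1 coefficient per label, all 12 arrays, 8 residual degrees of freedom, a variance trend, two-sided tests and Benjamini-Hochberg adjustment over all genes. The fit was tested on simulated data. Lists and motif shares were counted, not tested. The members and lists were chosen with earlier results of these data known. Named by rule were the E2F family, the 15 largest differences each way of called genes with no overlap between groups, the 5 smallest p-values per list, the 10 largest spreads among DKO arrays, the 5 called genes each way with the smallest p for the interaction, sex-linked genes and a set of erythroid and cell cycle genes. Other names are said to have been chosen after their values were seen. Replicate numbers did not pair arrays of the groups, as deviations of same-numbered WT and DKO arrays had r of -0.379, 0.033 and -0.278. Alternatives were other filters, quantile normalization, centring, probe set means per gene, all probe sets, no trend, array weights, only the 6 arrays compared, the replicate block, other thresholds and leaving out arrays.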

Additional observations from a re-analysis of the deposited data

Results flagged for a closer look

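In 10 genes the difference between arrays labelled DKO and Rb KO was not the same as that between E2f8 KO and WT, by limma's test of the interaction over 12980 genes. The interaction is given on the log2 scale with its standard error (n = 3 per group), and group means are in the order WT, E2f8 KO, Rb KO and DKO.

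In 7 genes it was above 0. Klhl7, of a ubiquitin ligase adaptor, had 3.78 ± 0.33 with means of 6.21, 5.58, 6.17 and 9.32. Mid1, of a microtubule-binding ubiquitin ligase, had 3.26 ± 0.40 with means of 7.50, 6.77, 7.12 and 9.66. The death receptor gene Tnfrsf10b had 2.53 ± 0.23 and the related Eda2r 2.25 ± 0.28. Eda2r was already at 7.37 in E2f8 KO against 5.29 in WT, and reached 9.66 in DKO. Fhl1 had 2.06 ± 0.28, also with a middle level of 7.61 in E2f8 KO. Podxl, of a sialomucin, had 1.82 ± 0.26 and Snx16, of a sorting nexin, 1.55 ± 0.21.

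In 3 genes it was below 0. Ccng2 had -1.67 ± 0.25, with DKO lowest at 5.85. Syt14 had -1.56 ± 0.23, with means of 8.04, 8.69, 7.57 and 6.66. Ephx3, named after its values were seen, had -1.44 ± 0.21, with E2f8 KO highest at 7.53 and DKO at 6.03, against 5.27 in WT. Adjusted p-values of the 10 ran from 0.000465 (Klhl7 and Tnfrsf10b) to 0.0181. WT and both single labels enter every one of these values, and Rb KO replicate 1 had fewer B cell markers (9.56) than the other Rb KO arrays (11.75 and 11.66), whose part was not tested.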

How the results depend on the processing

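No called named gene changed direction under the alternatives run. The medians of 6 lists, all near 0 (apoptosis, heme, iron, ribosome biogenesis, glycolysis and megakaryocyte), changed sign under at least 1 alternative. Of 208 called named genes, 19 missed the threshold under at least 1 of them. The number of called genes was 3255 at an adjusted p under 0.01 (1440 lower). It was 2347 with a 2-fold difference as well (1124 higher and 1223 lower). With all probe sets fitted singly, 4202 of 21334 probe sets were higher, a count of probe sets and not of genes. With the replicate number as a block, 4938 genes were called (2610 higher and 2328 lower) and 13 for the interaction. Whether the numbers stand for a shared batch is not known.

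The interaction count was 59 with array weights, 6 with the lowest 60% of probe sets removed and 2 to 49 with 1 array left out. Array weights gave medians of 1.15 (pocket protein and E2F), 0.17 (heme), 0.16 (red cell membrane), 0.41 (erythropoietin), 0.14 (erythroblast) and 0.13 (megakaryocyte). Removing the lowest 60% gave 0.78 (G1/S), 1.19 (p53), -0.61 (late maturation), 0.29 (erythroid factors), -0.17 (MYC), -2.76 (plasma cell) and -2.53 (dendritic cell), and left no mast cell gene. No filter gave 0.15 (p53), -0.38 (interferon), -0.24 (progenitor) and -1.08 (dendritic cell). Quantile normalization gave 0.00083 (iron) and 0.17 (erythroblast). Without replicate 3 of DKO and of E2f8 KO together, progenitor markers had -0.54, mast cell markers 0.089, and E2F forms stood in 10.1% of promoters of genes that rose, against 8.62% on all arrays. On all arrays, the 250 bases before the start alone gave 7.03%.

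Leaving out 1 array at a time gave medians of 0.72 to 1.07 (pocket protein and E2F), 0.62 to 0.88 (nucleotides), 0.53 to 0.73 (p53), -0.12 to 0.093 (heme), -0.094 to -0.0071 (iron), -0.62 to -0.52 (late maturation), -0.54 to -0.38 (progenitor), -1.40 to -1.05 (T cell), -1.59 to -1.16 (dendritic cell), 0.089 to 0.27 (mast cell) and -0.30 to -0.012 (endothelium), and a motif share of 8.42% to 10%. The causes were not tested. With 3 arrays per group, small differences of dim genes could not be resolved.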
